A study of Mus musculus with 2 samples.

Results

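Replication-dependent histone genes were taken as every gene whose symbol starts with Hist1h, Hist2h, Hist3h or Hist4h, which gave 67 of the 32285 genes in the deposited count tables. By symbol, 6 of them encode the linker histone H1, 18 encode H2A, 18 H2B, 12 H3 and 13 H4. They were followed in CD8+ T cells infiltrating tumours of MC38, a colon carcinoma line of the mouse, in wild-type (WT) mice on day 9 after implantation. After collagenase digestion and a flow cytometry sort for live CD8+ cells, each group gave 1 single-cell library with the 10x Genomics 5′ V2 chemistry. The NK-depleted library came from mice given the a-NK1.1 antibody, which removes natural killer (NK) cells. For the control, the treatment label reads PBS but the name of the library contains Iso, so what those mice were injected with is uncertain. How many mice were pooled into a library is likewise not given here. With 1 library per group no test was possible: all intervals are 95% intervals that cover counting error only, and differences between the libraries have no replicate check.

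Histone proteins package DNA, with H2A, H2B, H3 and H4 forming the core of the nucleosome and H1 binding the DNA between cores. Cells that copy their DNA need new histones in step with it, and genes of the clusters studied here are known for messenger RNA that rises in S phase and falls again afterwards. These messenger RNAs characteristically end in a conserved stem-loop, bound by the stem-loop binding protein Slbp, in place of a poly(A) tail. The 10x chemistry primes with oligo(dT), so the values describe the histone RNA that this priming captured, and what share of all histone RNA that is was not tested.

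The stem-loop was found as a perfect match, with 6 paired bases that start with GG and end with CC around a loop of 4 bases, in the annotated transcript of 46 members. Of the other protein-coding transcripts of GENCODE M21, 5.72% held such a match anywhere. Of the members without one, 11 have an annotated transcript that holds the coding part alone. The commonest form was shared by 26 members of H1, H2A, H2B and H3, while another form was carried by 7 members, all of them H4. The windows printed next (GENCODE M21 transcripts, GRCm38, read 5′ to 3′ on the strand of the gene, stem-loop in capitals) belong to members that the results turn on. They differ in how much annotated transcript follows the stem-loop, which is 3 bases in Hist1h2ap, 11 in Hist1h2ab, 51 in Hist1h3b and 46 in Hist1h2bm, against 840 in Hist1h1c, 1153 in Hist1h1e, 1643 in Hist3h2a, 169 in Hist3h2ba, 770 in Hist1h4d and 2445 in Hist4h4.
Hist1h2ap (chr13:21833026-21833049, minus strand): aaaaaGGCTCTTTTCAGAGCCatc
Hist1h2ab (chr13:23751567-23751592, plus strand): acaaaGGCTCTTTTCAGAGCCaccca
Hist1h3b (chr13:23752815-23752840, plus strand): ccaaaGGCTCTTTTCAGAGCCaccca
Hist1h2bm (chr13:21722501-21722526, plus strand): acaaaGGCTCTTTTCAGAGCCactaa
Hist1h1c (chr13:23739507-23739532, plus strand): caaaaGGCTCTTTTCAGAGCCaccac
Hist1h1e (chr13:23621777-23621802, minus strand): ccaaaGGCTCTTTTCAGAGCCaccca
Hist3h2a (chr11:58955167-58955192, plus strand): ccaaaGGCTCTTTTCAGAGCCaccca
Hist3h2ba (chr11:58949344-58949369, plus strand): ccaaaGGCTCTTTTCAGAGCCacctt
Hist1h4d (chr13:23581945-23581970, plus strand): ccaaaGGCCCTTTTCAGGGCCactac
Hist4h4 (chr6:136803993-136804018, minus strand): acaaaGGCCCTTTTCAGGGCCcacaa

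RefSeq promoters on GRCm38.p6 (250 bases before to 50 after the start of the gene) were matched to 62 members. Searched on both strands, TATAAA stood in 56.5% of them and in 13.6% of all 32851 promoters, and CCAAT in 85.5% against 37.4%. CCAAT was in every matched promoter of H1, H2A, H2B and H3 but in 3 of 12 of H4. AAACACA, a motif known from H1 promoters, was in 5 of 6 H1 promoters and in 7.18% of all promoters. A match describes the letters of the window and not a site in use. The 4 promoters that follow (motifs in capitals, on whichever strand they were found) set a pair of H1 genes and a pair of H2A genes side by side whose levels by cell cycle class, given further on, differed widely. Hist1h1b held all 3 motifs and Hist1h1c lacked TATAAA, while Hist1h2ap and Hist3h2a both held CCAAT without TATAAA. The H1 genes Hist1h1d and Hist1h1e held all 3 motifs as well, although the levels of Hist1h1e differed far less by class than those of Hist1h1b.
Hist1h1b (chr13:21780576-21780875, minus strand): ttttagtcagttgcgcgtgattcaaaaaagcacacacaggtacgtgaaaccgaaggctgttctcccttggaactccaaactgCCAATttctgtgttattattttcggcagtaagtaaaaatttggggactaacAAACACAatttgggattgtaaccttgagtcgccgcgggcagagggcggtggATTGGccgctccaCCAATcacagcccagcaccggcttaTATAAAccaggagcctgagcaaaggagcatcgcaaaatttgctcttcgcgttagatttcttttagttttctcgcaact
Hist1h1c (chr13:23738557-23738856, plus strand): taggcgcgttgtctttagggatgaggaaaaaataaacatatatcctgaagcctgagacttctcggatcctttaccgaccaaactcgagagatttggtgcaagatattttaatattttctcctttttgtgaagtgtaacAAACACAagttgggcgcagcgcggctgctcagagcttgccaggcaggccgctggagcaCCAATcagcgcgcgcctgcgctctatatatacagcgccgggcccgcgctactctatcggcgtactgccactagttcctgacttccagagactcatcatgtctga
Hist1h2ap (chr13:21833426-21833725, minus strand): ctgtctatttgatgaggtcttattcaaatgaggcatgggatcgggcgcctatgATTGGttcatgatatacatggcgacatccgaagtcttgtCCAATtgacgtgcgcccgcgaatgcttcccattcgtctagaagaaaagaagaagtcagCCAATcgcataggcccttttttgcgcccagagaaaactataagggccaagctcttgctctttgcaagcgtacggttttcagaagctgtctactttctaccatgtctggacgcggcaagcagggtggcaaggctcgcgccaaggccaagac
Hist3h2a (chr11:58954435-58954734, plus strand): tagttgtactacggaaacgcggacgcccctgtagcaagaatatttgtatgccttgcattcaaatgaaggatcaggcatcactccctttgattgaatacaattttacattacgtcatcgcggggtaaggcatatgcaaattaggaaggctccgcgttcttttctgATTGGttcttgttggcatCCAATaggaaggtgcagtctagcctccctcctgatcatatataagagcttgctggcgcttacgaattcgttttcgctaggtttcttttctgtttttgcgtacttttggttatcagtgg

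The deposited tables hold 7866 control and 10111 NK-depleted barcodes. The gate (at least 500 genes, a mitochondrial share under 10%, and UMIs of both Cd3 and Cd8 genes) left 6901 control and 8164 NK-depleted cells, with medians of 11444 and 12289.5 UMIs per cell. Both libraries held 391 barcodes in common, carried by 151 control and 61 NK-depleted cells of the gate. The 8 CD8 T cell marker genes summed to 8699 and 7251 CPM (UMIs of a gene per 1000000 UMIs of the library). The 10 marker lists of other cell types summed to between 0.160 and 185 CPM in the control and between 0.0878 and 201 CPM in the NK-depleted library, with Krt8 and Hbb-bs at 0 in both. Among 26 of their genes with means of 1 CPM or more, 5 were at least 25% higher and 16 at least 20% lower after NK depletion. Over all 11175 genes with such means the shares were 8.52% and 14.7%. The part of these marker genes in the histone values was not tested.

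In all, histone genes held 0.351% of the control UMIs and 0.464% of the NK-depleted UMIs, or 3511 and 4637 CPM. A 5′ UMI counts a molecule once whatever its length, so CPM is compared between genes without a length correction. In control cells H2A was the largest type with 1403 CPM, followed by H1 with 1171 CPM, H4 with 335 CPM, H3 with 330 CPM and H2B with 272 CPM. In NK-depleted cells H2A again led with 1994 CPM, ahead of H1 with 1444 CPM, H4 with 445 CPM, H3 with 411 CPM and H2B with 343 CPM. The core types, which enter the nucleosome in equal numbers, were therefore far from equal in the UMIs assigned to their genes. Reads that fit several genes alike may be missing, and whether such a loss differed between the types was not tested.

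A few genes carried most of the total. Hist1h2ap, an H2A gene on chromosome 13 (GRCm38, bases 21833026 to 21833507, minus strand), was the most abundant, at 781 CPM without and 1215 CPM with NK depletion. The H1 genes Hist1h1b (514 and 662 CPM) and Hist1h1e (399 and 472 CPM) and the H2A gene Hist1h2ae (299 and 382 CPM) came next, and these 4 genes held 56.8% and 58.9% of histone UMIs. The leading members of the remaining types were Hist1h4d (196 and 267 CPM), the H3 gene Hist1h3c (140 and 157 CPM) and the H2B gene Hist1h2be (53.4 and 63.9 CPM). After these came Hist1h2bj (43.1 and 56.8 CPM) and Hist1h2bb (28.8 and 38.1 CPM) among H2B genes. The next H3 genes were Hist1h3e (74.7 and 99.7 CPM) and Hist1h3f (38.0 and 46.7 CPM), and the next H4 genes Hist1h4h (67.8 and 85.1 CPM) and Hist1h4c (25.9 and 36.6 CPM). A mean of at least 1 CPM over both libraries was reached by 57 members, which were counted in what follows. The other 10 had 0 to 203 UMIs over both libraries, with means up to 0.872 CPM, and Hist1h2bq and Hist1h2ba were at 0. The testis-type H1 gene Hist1h1t was among them, with 5 control and 12 NK-depleted UMIs.

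Many members are near-copies of each other, which limits how exactly a value belongs to 1 gene. At least 50% of the 60-base windows of the transcript also occurred in transcripts of other genes for 31 members, among them Hist1h2ap with 92.9% and Hist1h2af with 76.2%. Hist1h1b, with 0% of windows shared, and Hist1h1c, with 7.59%, did not have this limit. Hist1h2be and Hist1h1e overlap on the same strand, as do Hist3h2a and Trim17, so their UMIs are uncertain in the same way.

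Cells were put in 5 exclusive classes by 3 genes after each cell had been thinned to 5500 UMIs, which left out 655 control and 780 NK-depleted shallower cells. The genes were Mcm3, a subunit of the helicase that opens DNA for replication, the proliferation marker Mki67, and Cdc20, which activates the anaphase-promoting complex in mitosis. The class with none of the 3 was 60.2% (58.9 to 61.4) in the control against 46.7% (45.6 to 47.9) after NK depletion. Mcm3 alone was found in 14.2% and 15.7%, Mcm3 with Mki67 in 8.69% and 14.4%, Mki67 alone in 11.3% and 14.5%, and Cdc20, with or without the other genes, in 5.68% and 8.75%. Every class other than the first was therefore larger in the NK-depleted library. Without thinning, cells with none of the 3 were 47.9% and 36.3%, and Mcm3 alone was 16.7% and 15.9%. The classes also differed in depth before thinning, with medians of 10786.5 and 10611.5 UMIs with none of the 3 genes and of 22549 and 20558.5 UMIs with Mcm3 and Mki67, and the part of depth in the class levels was not tested.

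Histone RNA was higher in the classes with Mki67 or Cdc20 in both libraries. All members together stood at 669 CPM in control cells with none of the 3 genes and at 9021 CPM in those with Mcm3 and Mki67, a 13.5-fold difference (13.3 to 13.7). In the NK-depleted library the same classes had 845 and 8875 CPM, a 10.5-fold difference (10.4 to 10.6). The intervals cover counting error only, and the size depended on how a gene was called present: with classes from unthinned counts the differences were 8.20-fold and 7.08-fold. Cells with Cdc20 had 9757 and 10325 CPM, and those with Mki67 alone 7074 and 7155 CPM. Cdc20 cells stood above those with Mcm3 and Mki67 in both libraries, but this order turned when 2 UMIs were required, with 10308 and 9622 CPM for Cdc20 against 11774 and 10850 CPM for Mcm3 with Mki67. Mcm3 alone went with only 986 and 1324 CPM, or 1.47-fold and 1.57-fold over the first class. With classes from unthinned counts, Mki67 alone was only 1.93-fold and 2.26-fold over the first class and Mcm3 alone fell slightly below it, at 0.975-fold and 0.934-fold. When the 8 combinations of the 3 genes were set apart, a split chosen after values were seen, cells with all 3 genes (91 control and 200 NK-depleted cells) had 13627 and 12851 CPM, more than any other combination. Cells with Cdc20 and Mki67 but no Mcm3 had 9713 and 10502 CPM. Without Mki67, Cdc20 cells were few and lower. Those with Cdc20 alone (52 and 80 cells) had 1082 and 1478 CPM, and those with Cdc20 and Mcm3 (11 and 36 cells) had 692 and 3928 CPM. The high level of the Cdc20 class was thus that of its cells with Mki67.

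The types rose by different amounts. From the class with none of the 3 genes to that with Mcm3 and Mki67, H2A went from 129 to 3932 CPM in control cells, 30.4-fold (29.6 to 31.2). In NK-depleted cells it went from 218 to 3969 CPM, 18.2-fold (17.8 to 18.6). H3 rose 18.5-fold and 12.2-fold, H2B 10.2-fold and 8.12-fold, and H1 9.50-fold and 8.49-fold. H4 had the smallest rise, 5.57-fold (5.402 to 5.753) from 125 CPM in control cells and 4.57-fold (4.44 to 4.70) from 157 CPM in NK-depleted cells. The make-up of the histone RNA shifted accordingly. H1 held 45.8% of histone UMIs in control cells with none of the 3 genes and 32.2% in those with Mcm3 and Mki67, while H2A went from 19.3% to 43.6% and H4 from 18.7% to 7.72%. The NK-depleted library had the same order, with H1 at 39.2% and 31.7%, H2A at 25.9% and 44.7% and H4 at 18.6% and 8.10%.

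**Figure D1:**
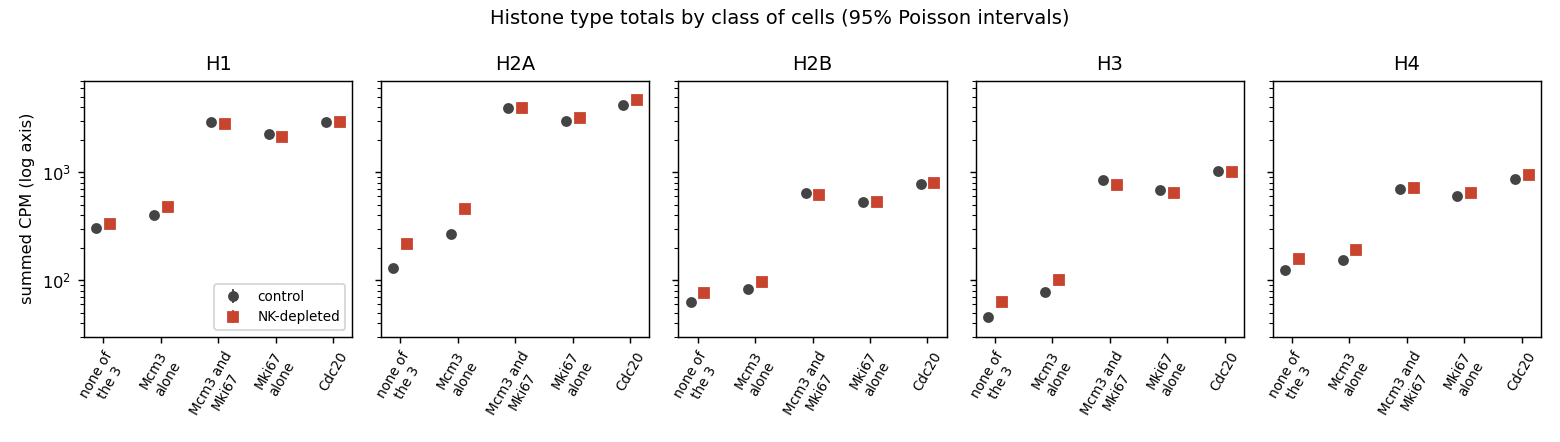
Summed CPM (log axis) of the members of each histone type, 1 panel per type, in the 5 classes of cells, for the control (circles) and NK-depleted (squares) library, with 95% Poisson intervals that are mostly smaller than the symbols. In each panel the cells with none of the 3 genes and those with Mcm3 alone lie well below the other classes, and the gap between the libraries is widest for H2A in those lower classes (129 and 218 CPM with none of the 3 genes).

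Of the 57 counted members, 53 were at least 2-fold higher with Mcm3 and Mki67 than with none of the 3 genes in both libraries, against 6.34% of the 11175 genes of at least 1 CPM. Only Hist3h2a was at least 2-fold lower in both, against 1.94% of all genes. The median ratio was 13.2 in the control and 9.29 in the NK-depleted library, while it was 1.001 and 1.031 over all genes. With Mki67 alone 53 members passed 2-fold (4.05% of all genes), with Cdc20 55 members (5.38%), and with Mcm3 alone 11 members (1.67%). None was at least 2-fold lower in both libraries in these 3 classes, against 0.456%, 1.91% and 0.0626% of all genes. The 11 included Hist1h2ap, Hist1h1b, Hist1h1a, Hist1h3a and Hist1h3b. All 5 counted H1 members and all 9 counted H3 members passed with Mcm3 and Mki67, as did 13 of 14 of H2A, 14 of 16 of H2B and 12 of 13 of H4.

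The steepest rises included H2A and H3 genes with very little RNA outside the cycling classes. Hist1h2af, an H2A gene, had 0.358 CPM in control cells with none of the 3 genes and 56.4 CPM with Mcm3 and Mki67, 157-fold (99.01 to 267). In the NK-depleted library it had 1.62 and 50.4 CPM, 31.2-fold (24.5 to 40.3). The H3 gene Hist1h3b went from 0.736 to 60.8 CPM in control cells, 82.6-fold (59.5 to 118), and from 2.10 to 74.5 CPM in NK-depleted cells, 35.5-fold (28.7 to 44.3). Hist1h2ab rose 76.4-fold and 22.4-fold. Among the abundant genes, Hist1h1b went from 26.2 to 1515 CPM in control cells, 57.8-fold (54.7 to 61.1), and from 57.6 to 1474 CPM in NK-depleted cells, 25.6-fold (24.6 to 26.7). Hist1h2ap went from 47.6 to 2291 CPM, 48.2-fold, and from 108.7 to 2466 CPM, 22.7-fold. The H2B genes Hist1h2bm and Hist1h2bb rose 52.8-fold and 50.7-fold in the control and 23.9-fold and 15.7-fold after NK depletion, and the H2A gene Hist1h2an 49.6-fold and 22.1-fold. In each of these genes the levels with Mcm3 and Mki67 lay nearer to each other in the 2 libraries, as ratios, than the levels with none of the 3 genes did, and the latter were higher after NK depletion.

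At the other end, 4 members named as replication-dependent did not follow the cycling classes in this way. Hist3h2a, an H2A gene on chromosome 11, fell from 11.7 CPM with none of the 3 genes to 4.01 CPM with Mcm3 and Mki67 in the control, a ratio of 0.342 (0.258 to 0.447). In the NK-depleted library it fell from 9.21 to 3.50 CPM, a ratio of 0.381 (0.298 to 0.481). Its neighbour, the H2B gene Hist3h2ba, had 6.97 and 7.69 CPM in these classes of the control, with an interval of the ratio that held 1, and 4.799 and 7.01 CPM after NK depletion, a ratio of 1.46 (1.19 to 1.79). Hist2h2be, an H2B gene, had 1.11 and 1.004 CPM and, after NK depletion, 1.02 and 1.17 CPM. It rested on few counts, with 56 control and 44 NK-depleted UMIs in cells with none of the 3 genes. Hist4h4 on chromosome 6 rose, but by less than 2-fold. It had 2.01 and 2.88 CPM, a ratio of 1.43, and, after NK depletion, 2.01 and 2.94 CPM, a ratio of 1.46. All 4 lie outside chromosome 13, but position alone did not set them apart, since 6 of the 7 counted members on chromosome 3 passed 2-fold in both libraries. These ran from Hist2h2ab, an H2A gene, at 2.56-fold and 2.82-fold to the H3 gene Hist2h3b at 9.20-fold and 9.06-fold. With Cdc20, Hist3h2ba and Hist2h2be passed 2-fold in both libraries and Hist3h2a and Hist4h4 did not.

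Some of the most abundant members rose less than most others. Hist1h1c, an H1 gene, went from 106 to 258 CPM in control cells, 2.43-fold (2.33 to 2.54), and from 94.1 to 247 CPM in NK-depleted cells, 2.62-fold (2.52 to 2.73). Hist1h1e rose 5.53-fold from 159 CPM and 5.20-fold from 158 CPM, and the H4 gene Hist1h4d 5.23-fold from 76.8 CPM and 4.38-fold from 99.2 CPM. The H1 genes thus changed order, since Hist1h1b, scarcer than Hist1h1c and Hist1h1e in cells with none of the 3 genes, was the most abundant H1 gene with Mcm3 and Mki67. The remaining leading members ranged widely, with Hist1h2ae at 41.6-fold and 21.5-fold, Hist1h3c at 50.3-fold and 20.2-fold, Hist1h3e at 9.57-fold and 8.47-fold, Hist1h3f at 8.32-fold and 6.66-fold, Hist1h4h at 7.67-fold and 5.53-fold, Hist1h2bj at 21.7-fold and 12.5-fold, Hist1h2be at 4.79-fold and 4.40-fold and Hist1h4c at 4.08-fold and 4.09-fold.

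**Figure D2:**
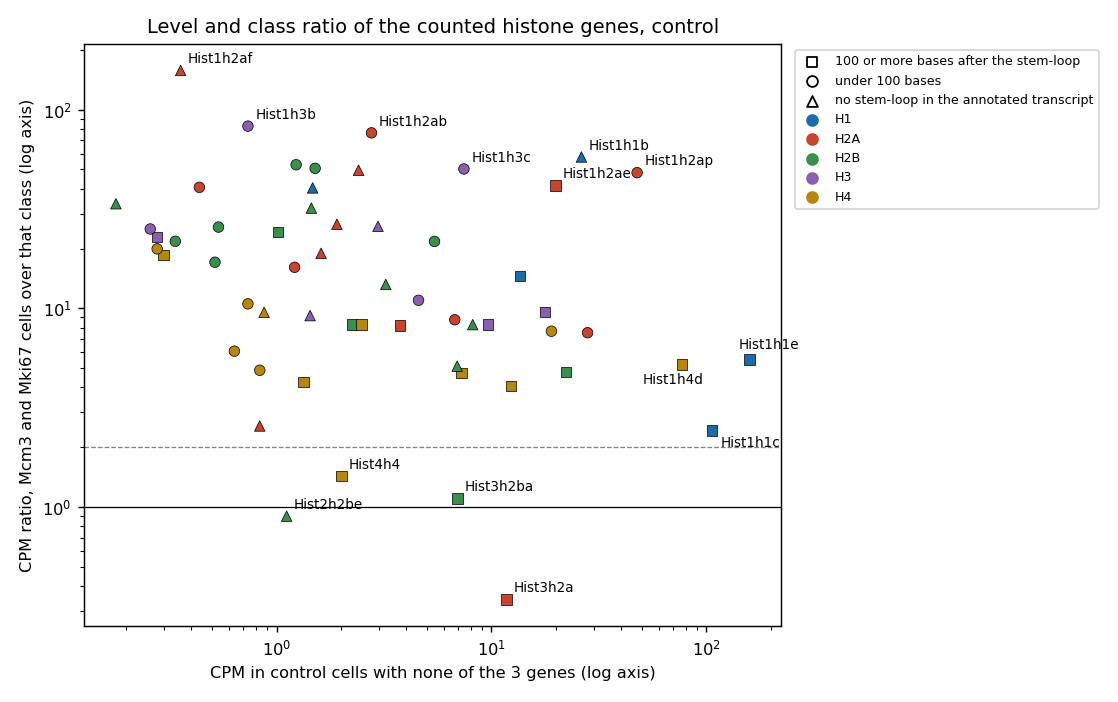
Each symbol is 1 of the 57 counted members in the control library, by its CPM in cells with none of the 3 genes (x, log axis) and by the ratio of its CPM in cells with Mcm3 and Mki67 to that level (y, log axis); colour gives the histone type and shape the annotated sequence after the stem-loop. Hist3h2a at 0.342 lies below 1, Hist1h1c at 2.43 lies far right near the dashed line of 2-fold, and Hist1h1b and Hist1h2ap combine a high level with ratios of 57.8 and 48.2.

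Members with long annotated sequence after the stem-loop rose less than those with short sequence. The 20 counted members with at least 100 bases after it had a median rise of 6.86-fold in the control and 5.93-fold in the NK-depleted library. The 21 with fewer bases had 21.7-fold and 11.5-fold, and the 16 with no stem-loop in the annotated transcript had 22.4-fold and 16.2-fold. The first group had the higher levels outside the cycling classes, with medians of 8.44 and 9.40 CPM in cells with none of the 3 genes against 1.21 and 2.10 CPM in the second. It held 71.2% of the histone CPM of that class in the control and 60.8% in the NK-depleted library, but 34.7% and 34.2% with Mcm3 and Mki67. The order was the same within each of the 4 types that had members in both groups. The medians for long and short sequence in the control were 8.20-fold and 28.4-fold in H2A, 6.54-fold and 23.7-fold in H2B, 9.57-fold and 37.7-fold in H3 and 4.72-fold and 7.67-fold in H4. In the NK-depleted library they were 7.28-fold and 14.2-fold, 5.84-fold and 14.4-fold, 8.47-fold and 15.4-fold, and 4.09-fold and 5.53-fold. The groups overlapped: Hist1h2ae, with 151 bases after the stem-loop, rose 41.6-fold, and Hist2h2ac, with 57, rose 7.54-fold in the control. These groups were made after levels were known and hold 3 to 7 members within a type, so they describe these genes only.

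By promoter, 31 counted members with TATAAA had a median rise of 18.6-fold in the control and 11.5-fold in the NK-depleted library, against 13.2-fold and 9.06-fold for 21 members without it. The 9 members without CCAAT, all of them H4 genes, had 7.67-fold and 5.53-fold, against 21.7-fold and 12.5-fold for the 43 with it. Within H4 the medians ran the other way, at 5.23-fold and 4.38-fold for the 3 genes with CCAAT (Hist1h4a, Hist1h4c and Hist1h4d). By position, the 19 members near 21 to 22 Mb of chromosome 13 had a median rise of 21.7-fold and 16.2-fold, the 28 members near 23 Mb 12.8-fold and 9.50-fold, and the 7 members on chromosome 3 7.54-fold and 6.85-fold. Every other type had CCAAT in all its matched counted promoters, so the pooled CCAAT contrast cannot be told apart from that between H4 and the other types.

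Between the cycling classes the members were not alike either. The interval of the ratio of Mcm3 and Mki67 cells to Cdc20 cells lay above 1 in both libraries for 4 of the 57 members. This was a smaller share than the 11.9% of all counted genes. The 4 were the H1 genes Hist1h1a and Hist1h1b, the H3 gene Hist1h3a and the H4 gene Hist1h4a. The interval lay below 1 in both for 22 members, against 8.22% of all counted genes. When 2 UMIs were required, all members together had the opposite order of these 2 classes. Counts of members under that rule are not given here. Hist1h3a had 50.2 CPM with Mcm3 and Mki67 and 30.004 CPM with Cdc20 in control cells, a ratio of 1.67 (1.45 to 1.94), and 43.4 and 32.4 CPM in NK-depleted cells, 1.34 (1.20 to 1.496). Hist1h1a had 59.5 and 34.8 CPM, 1.71 (1.497 to 1.96), and 62.7 and 50.4 CPM, 1.24 (1.14 to 1.36). Hist1h3a also had 12.7 and 14.2 CPM in cells with Mcm3 alone, 2.77-fold and 2.25-fold over those with none of the 3 genes. Hist1h3c was among the 22, with 374 CPM with Mcm3 and Mki67 and 465 CPM with Cdc20 in control cells and 290 and 415 CPM in NK-depleted cells. Hist1h3a and Hist1h4a were picked out after their values were seen.

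Most cells had few histone UMIs and a small share had very many. At 5500 UMIs per cell, a histone UMI was present in 92.4% (91.7 to 93.0) of control and in 96.5% (96.0 to 96.9) of NK-depleted cells, and in 97.9% and 99.5% without thinning. Such a share says little, because it was 90.5% and 95.1% in cells with none of the 3 cycle genes, and 74.2% (55.4 to 88.1) and 94.7% (74.0 to 99.9) in the 31 control and 19 NK-depleted barcodes without a Cd3 UMI. Those barcodes had medians of 11322 and 9479 UMIs before thinning, against 12406.5 and 13233.5 for all thinned cells. The median cell had 3 histone UMIs in the control and 5 in the NK-depleted library. The 10% of cells with the most histone UMIs held 73.2% of them in the control and 60.7% in the NK-depleted library.

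At least 10 histone UMIs were found in 16.4% (15.5 to 17.3) of control and in 25.9% (24.9 to 26.9) of NK-depleted cells. Without thinning these shares were 42.5% and 54.1%. In cells with none of the 3 genes the share was 4.58% and 6.20%, and with Mcm3 alone 4.85% and 10.4%. It was 61.7% and 66.0% with Mcm3 and Mki67, 36.1% and 42.1% with Mki67 alone, and 62.0% and 65.8% with Cdc20. Many cells with Mcm3 and Mki67, or with Cdc20, therefore had under 10 histone UMIs in both libraries. Among the 276 control and 425 NK-depleted cells with at least 100 histone UMIs, 0.362% and 0.706% had none of the 3 genes, and 33.0% and 33.2% had Cdc20. Up to 37 members were seen in 1 control cell and up to 39 in 1 NK-depleted cell.

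**Figure D3:**
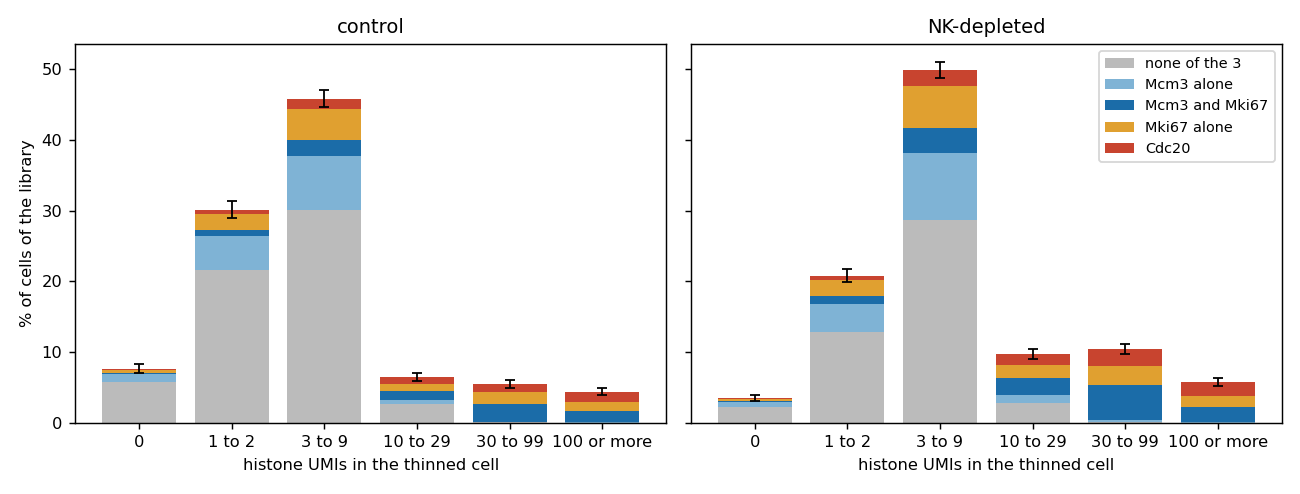
Share of cells of each library (y, percent) by the number of histone UMIs in a cell thinned to 5500 UMIs (x), with 95% Clopper-Pearson intervals for each whole bar and colours for the 5 classes. Bars for 0 to 2 UMIs are lower and those from 10 UMIs on are higher in the NK-depleted library, and cells with none of the 3 genes are nearly absent from the 2 bars furthest right in each panel.

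Between the libraries, histone RNA was higher after NK depletion, by 1.32-fold (1.316 to 1.326) for all members together. H2A differed most, at 1.42-fold (1.41 to 1.43), and H4 stood at 1.33-fold, H2B at 1.26-fold, H3 at 1.247-fold and H1 at 1.23-fold. Of the 57 counted members, 35 were at least 25% higher, against 8.52% of the 11175 genes, 2 were at least 20% lower, against 14.7%, and 20 lay between. With a minimum mean of 10 CPM, 20 members were higher (5.88% of 7446 genes) and 0 lower (11.4%). The median log2 ratio was 0.38 over the members and -0.06 over all genes. The interval lay above 1 for 48 members and below 1 for 2. The same shares over all genes are not given here, so these counts do not set the histone genes apart from other genes. By type, 3 of 5 H1, 8 of 14 H2A, 10 of 16 H2B, 6 of 9 H3 and 8 of 13 H4 members were higher.

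The largest ratios belonged to Hist1h3b with 20.3 and 34.1 CPM (1.68, 1.59 to 1.77), Hist2h4 with 2.67 and 4.32 CPM (1.62, 1.40 to 1.88) and Hist1h4j with 2.17 and 3.45 CPM (1.59, 1.35 to 1.88). Hist1h1a followed with 17.4 and 27.0 CPM (1.55, 1.47 to 1.65), and then Hist1h2ap with 781 and 1215 CPM (1.55, 1.54 to 1.57). The difference in Hist1h2ap was larger in CPM than that of all the other H2A members together. The 2 lower members were Hist3h2a with 9.14 and 6.68 CPM (0.731, 0.665 to 0.802) and Hist3h2ba with 8.51 and 6.62 CPM (0.778, 0.707 to 0.856). Neither passed 2-fold with Mcm3 and Mki67. Next to them in order came Hist2h2be (1.20 and 1.21 CPM), Hist1h2ai (11.2 and 11.4 CPM) and Hist1h4k (3.89 and 4.08 CPM), whose intervals held 1. Hist1h1c and Hist4h4, other genes with a weak link to the classes, had ratios of 1.06 and 1.12. Scaled with edgeR's TMM factors, 1 member, Hist3h2a, was at least 20% lower, against 9.87% of all genes.

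**Figure D4:**
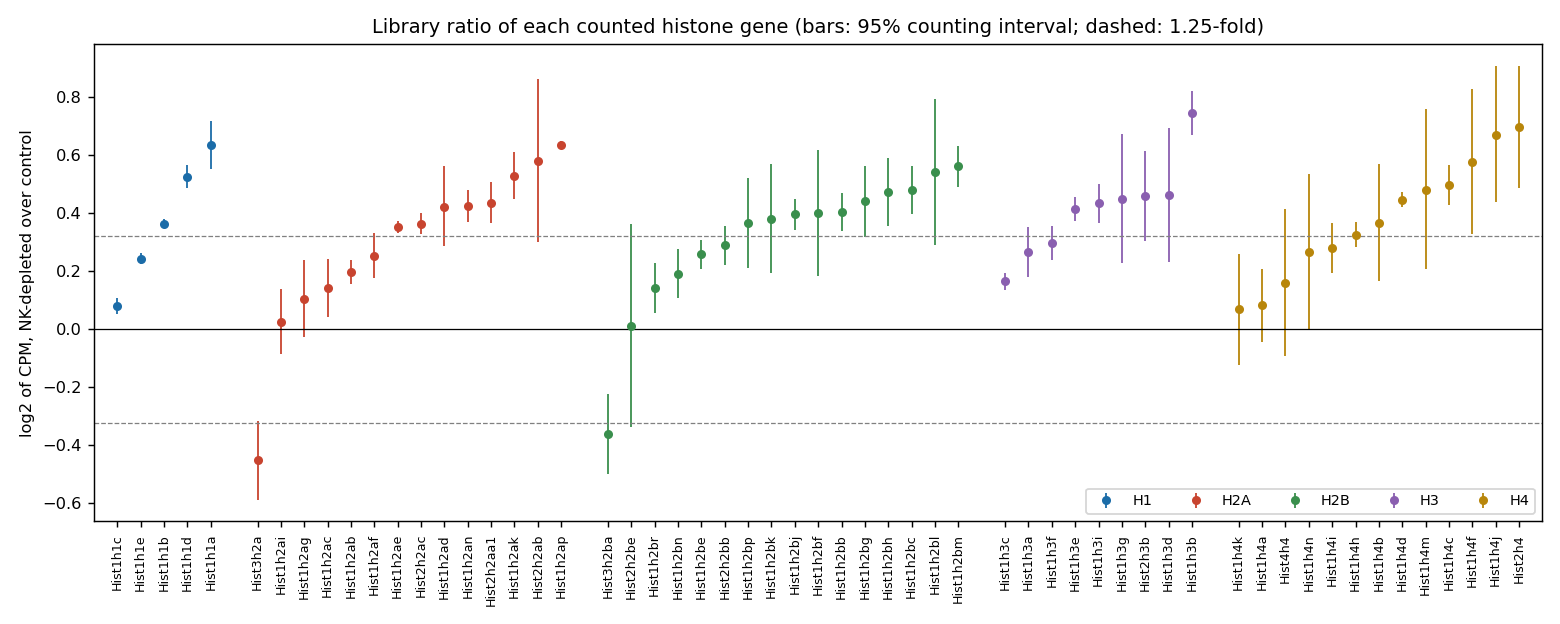
Log2 ratio of CPM, NK-depleted over control, for each of the 57 counted members, grouped and coloured by histone type, with 95% counting intervals and dashed lines at 25% higher and 20% lower. Most members of each type lie above 0, and Hist3h2a (-0.45) and Hist3h2ba (-0.36) lie below the lower dashed line.

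Within the cycling classes most of this difference was absent. All members together had a ratio of 0.984 (0.977 to 0.991) in cells with Mcm3 and Mki67, 1.011 (1.003 to 1.02) in those with Mki67 alone and 1.06 (1.05 to 1.07) in those with Cdc20. In cells with none of the 3 genes the ratio was 1.26 (1.245 to 1.28), and with Mcm3 alone it was 1.34 (1.32 to 1.37). When the NK-depleted levels were combined with the class shares of the control, all members stood at 3733 CPM against 3560 CPM in the control, a ratio of 1.05 in place of 1.32. At that fixed mix the ratio was 1.102 for H2A, 1.11 for H4, 1.012 for H2B, 0.994 for H1 and 0.980 for H3. Of the 57 members, 33 were at least 25% higher in cells with none of the 3 genes (7.7% of all genes) and 30 with Mcm3 alone (10.4%), while 3 (15.6%) and 6 (20.1%) were at least 20% lower. The 57 were chosen by their mean over all gated cells, and some were scarce outside the cycling classes. Hist1h2bl, for 1, had 9 and 14 UMIs with none of the 3 genes, a ratio of 1.80 (0.727 to 4.72). These counts of members are therefore not strictly comparable with the shares of all genes. With Mcm3 and Mki67 1 member was higher (8.6%) and 2 lower (14.6%), with Mki67 alone 2 higher (9.49%) and 6 lower (16.4%), and with Cdc20 6 higher (9.83%) and 2 lower (18.0%). These ratios depend on how cells are classed. With status from full counts the log2 ratio with Mki67 alone was 0.53 in place of 0.02, and with Mcm5 and Top2a in place of Mcm3 and Mki67 the log2 ratio with the S phase gene alone was -0.03 in place of 0.42.

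**Figure D5:**
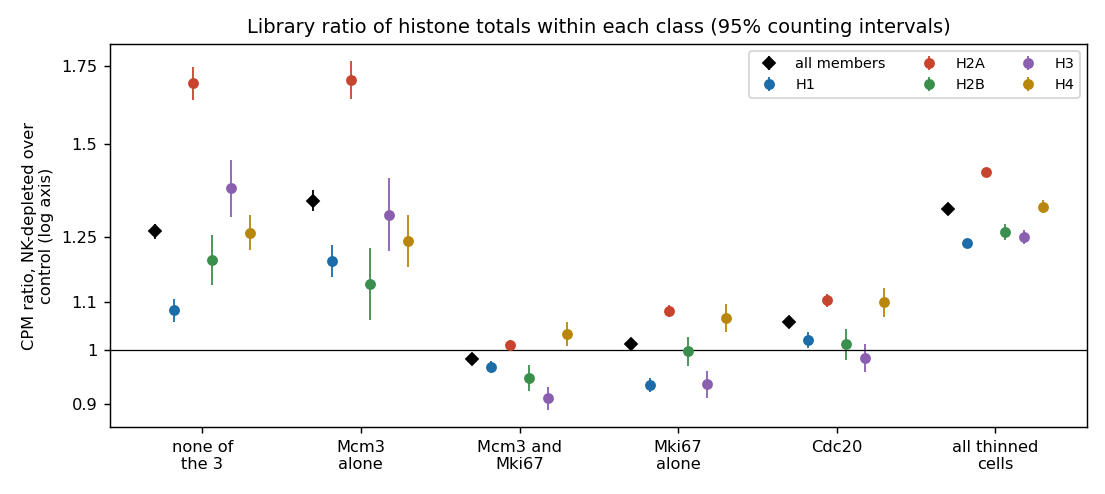
Ratio of summed CPM, NK-depleted over control (log axis), for all members (diamonds) and for each histone type (circles) within the 5 classes and over all thinned cells, with 95% counting intervals. Among the 5 classes, ratios are highest in cells with none of the 3 genes and with Mcm3 alone, where H2A reaches 1.69 and 1.70, and lie near 1 in the other 3 classes.

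Within the class with none of the 3 genes the members differed among themselves. Hist1h2ap had 47.6 CPM without and 108.7 CPM with NK depletion, 2.28-fold (2.17 to 2.40). Hist1h1b had 26.2 and 57.6 CPM, 2.20-fold (2.06 to 2.35), and Hist1h2ae 19.8 and 35.0 CPM, 1.77-fold (1.63 to 1.91). Hist1h1e, the most abundant member in that class, had 158.7 and 157.8 CPM, 0.994-fold (0.963 to 1.03), and Hist1h1c was lower with 106 and 94.1 CPM, 0.887-fold (0.851 to 0.924). H2A as a whole was 1.69-fold (1.64 to 1.74) and H1 1.08-fold (1.06 to 1.11). The genes of the G2 and M phase list, which are no members, summed to 121 and 207 CPM over the class with none of the 3 genes, and those of the S phase list to 493 and 541 CPM. The part of free RNA, and of cycling cells without a UMI of the 3 genes, in these values was not tested.

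Genes that act on histones were read from lists for comparison. Of 21 genes for the transcription and processing of histone messenger RNA, 3 were at least 25% higher and 0 at least 20% lower after NK depletion, against 8.52% and 14.7% of all counted genes. The 3 were the S phase cyclin genes Ccne2 (9.05 and 16.4 CPM, 1.81-fold) and Ccne1 (25.8 and 33.5 CPM, 1.30-fold) and the transcription factor gene E2f1 (14.1 and 20.9 CPM, 1.48-fold), with Lsm11, a subunit of the particle that cuts histone precursors, next at 1.24-fold. Of these, Ccne1, Ccne2 and E2f1 are known as general drivers of the cycle. Slbp had 121 and 137 CPM and rose 2.58-fold and 2.82-fold from cells with none of the 3 genes to those with Mcm3 and Mki67. Npat, the coactivator of histone transcription, had 28.5 and 26.4 CPM and ratios of 1.59 and 1.753 between those classes. In all, 7 of the 21 genes passed 2-fold between those classes in both libraries, against 53 of the 57 histone genes and 6.34% of all counted genes.

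Of 20 histone chaperone genes, 5 were higher and 1 lower by the same measure, beside the same 8.52% and 14.7% of all counted genes. Chaf1a, a subunit of the factor that loads histones behind the replication fork, had 26.3 and 36.9 CPM (1.40-fold), Tonsl 6.49 and 8.69 CPM (1.34-fold) and Asf1b 33.6 and 44.7 CPM (1.33-fold). The lower gene was Daxx, a chaperone of the H3.3 variant, with 136 and 88.7 CPM (0.651-fold). Between cells with none of the 3 genes and those with Mcm3 and Mki67, 12 of the 20 passed 2-fold in both libraries, against 6.34% of all counted genes, and Asf1b rose 15.8-fold and 11.3-fold. Of 10 counted replication-independent histone variants 1 was higher, beside 8.52% of all counted genes. This was H1fx with 0.554 and 1.84 CPM (3.33-fold, 2.49 to 4.51), followed by H3f3b with 1686 and 1400 CPM (0.831-fold), H2afx with 67.6 and 78.6 CPM (1.16-fold) and H1f0 with 29.2 and 32.8 CPM (1.12-fold). Between the same classes 5 of these 10 variants passed 2-fold in both libraries, against 6.34% of all counted genes. H2afx rose 6.24-fold in the control and 5.34-fold in the NK-depleted library. H3f3b and H3f3a, which encode H3.3 independently of replication, did not pass 2-fold. Their ratios between these classes were 1.04 and 1.16 in the control and 1.02 and 1.06 in the NK-depleted library. All 12 replication-dependent H3 genes together had 330 and 411 CPM, but oligo(dT) priming may capture RNA with and without a poly(A) tail to different shares, so the levels cannot be ranked.

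Of 20 S phase genes, 11 were higher and 0 lower between the libraries. Of 18 G2 and M phase genes, 17 were higher and 0 lower. Among all counted genes 8.52% were higher and 14.7% lower. The S phase list shares Slbp and E2f1 with the processing list and Mcm2 with the chaperone list. The median log2 ratios were 0.37 for the S phase list and 0.41 for the G2 and M phase list. The histone genes, at 0.38, lay close to both. The furthest from a ratio of 1 were Cdc6 (1.70), Uhrf1 (1.53), E2f1 (1.48) and Mcm7 (1.42) on the first list and Ttk (1.60), Top2a (1.56), Plk1 (1.46) and Nusap1 (1.46) on the second. From cells with none of the 3 genes to those with Mcm3 and Mki67, the S phase genes had a median rise of 6.82-fold and 5.71-fold and the G2 and M phase genes of 24.4-fold and 13.3-fold, against 13.2-fold and 9.29-fold for the histone genes. Within the classes the patterns differed. The S phase list summed to 2541 CPM with Mcm3 and Mki67 and 1378 CPM with Cdc20 in the control, and the G2 and M phase list to 2407 and 5488 CPM. Histone genes, at 9021 and 9757 CPM, were near their highest in both.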

How the data were processed

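Each library is a matrix of unnormalized UMI counts, whole numbers, as deposited by the authors. Per the file headers Cell Ranger 6.1.2 wrote them. Seurat 4.0.6 and the mm10 build are named per the submitters' processing notes. UMI totals over all barcodes were 108106687 in the control and 128853437 in the NK-depleted library, which sets the counting intervals. How Cell Ranger split reads between near-identical histone genes was not tested, and reads that fit several genes alike may be missing.

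Members and gene lists were chosen with earlier results of these data known. Counts were summed over the gated cells (106462391 and 125332343 UMIs) and given as CPM. Ratios carry exact conditional binomial, shares Clopper-Pearson and levels Poisson 95% intervals. With 1 library per group no p-value was computed. Library calls used a mean of at least 1 CPM and a ratio at least 25% above 1 or 20% below it, and class calls a 2-fold difference in both libraries. Classes came from UMIs thinned to 5500 a cell, and class levels from the full counts of the same cells.

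Named members were the 3 of highest mean CPM in each type, every Hist3h and Hist4h gene, the 6 highest and 6 lowest ratios of Mcm3 and Mki67 cells over cells with none of the 3 genes, and the 5 highest and 5 lowest library ratios. Of other lists the 4 genes furthest from a ratio of 1 were named. Slbp, Npat, H3f3a, Hist1h1d, Hist1h1t, Hist1h3a, Hist1h4a and the groups by sequence, position, combination of genes and UMIs per cell were chosen after values were seen.

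Doublets were not removed. Scrublet called 1 control cell (0.0140%), so it did not work there, and 771 NK-depleted cells (9.23%), and an alternative leaves out the 8% of cells with the highest scores. Other alternatives were TMM (edgeR 4.0.16, R 4.3.3) and median-of-ratios factors, means over cells, other gates, minima, depths and status rules. The ratio and interval code was tested on simulated data. Tools were scanpy 1.11.5, numpy 2.4.6, scipy 1.17.1, pandas 2.3.3 and matplotlib 3.10.9. Promoters are from RefSeq (GRCm38.p6) and transcripts from GENCODE M21 (GRCm38).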

Additional observations from a re-analysis of the deposited data

How the results depend on the processing

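No paired analysis was possible because each group has 1 library, and no replicate could be left out. The log2 ratio of all members was 0.40 and became 0.48 with TMM and 0.48 with median-of-ratios factors, 0.47 as a mean over cells, 0.42 with a mitochondrial share under 5%, 0.41 without the top Scrublet scores, 0.49 with thinned UMIs and 0.45 without the shared barcodes, an alternative chosen after seeing the data. With either set of factors 1 member was lower, 5 processing genes and 8 chaperone genes were higher. The share over all genes moved too, to 12.6% higher and 9.87% lower from 8.52% and 14.7%. The variants had 0 higher as a mean over cells (10.1% of all genes) and 0 with thinned UMIs (10.9%). Without shared barcodes 5 processing genes were higher (9.74% of all genes). With a minimum of 10 CPM 20 members were higher (5.88% of all genes) and 0 lower (11.4%), since fewer members were counted.

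With status from full counts the share of cells with none of the 3 genes differed by -11.6 percentage points in place of -13.4, and that with Mcm3 alone reversed to -0.79 from 1.51. The log2 ratio of all members with Mcm3 and Mki67 over none of the 3 was 3.04 in the control and 2.82 after NK depletion, in place of 3.75 and 3.39, and with Cdc20 3.94 and 3.69, in place of 3.87 and 3.61. Library log2 ratios were 0.31 with none of the 3, 0.25 with Mcm3 alone, 0.10 with Mcm3 and Mki67, 0.53 with Mki67 alone, 0.055 with Cdc20 and 0.11 at the fixed mix, in place of 0.34, 0.42, -0.02, 0.02, 0.08 and 0.07.

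In the same order, requiring 2 UMIs gave -11.1 points, 3.63 and 3.05, 3.44 and 2.88, and library log2 ratios of 0.46, 0.60, -0.12, -0.016, -0.10 and 0.092. Mcm5 and Top2a gave -15.6 points, 3.59 and 3.43, 3.83 and 3.71, and library log2 ratios of 0.21 with none of the 3, -0.029 (reversed) with the S phase gene alone, 0.038 with both, -0.063 with Top2a alone and 0.034 at the fixed mix. Without the top Scrublet scores the class ratios were 3.85 and 3.50 and 3.94 and 3.68, and library log2 ratios 0.37 with Mcm3 alone, -0.0060 with Mcm3 and Mki67, -0.056 with Mki67 alone and 0.056 at the fixed mix. The share of cells with at least 10 histone UMIs was 42.5% and 54.1% with full counts and 15.5% and 24.3% without the top Scrublet scores. The causes were not tested. Depth limits the scarce members, 10 of which were not counted, and cells of low depth can lack a UMI of a gene they express.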
